A study of Mus musculus with 4 samples.

Results

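The dystrophin glycoprotein complex was followed through 8 of its genes in mouse skeletal muscle with and without corticotropin-releasing factor receptor 2. The genes were Dmd, Utrn, Dag1, Sgca, Sgcb, Sntb2, Dtna and Lama2. They were chosen by name, and every probe set that the array annotation assigns to 1 of them was kept, which gave 12 of 12422 probe sets for 8 of 8251 named genes. Dag1, Sgca, Utrn and Dtna were each read by 2 probe sets and the other genes by 1. The samples were combined gastrocnemius and soleus muscles of untreated male mice aged 6.5 months on a C57BL/6x129 background, either Crhr2-/- (KO) or their Crhr2+/+ littermates (WT). For each genotype, 4 mice gave 2 pools of RNA with 2 mice in each, and each pool was put on 1 Affymetrix U74Av2 array. Spread between arrays is therefore spread between pools, not between single mice. Crhr2-/- mice lack the receptor in the whole body, not in muscle alone.

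The complex spans the muscle fibre membrane and joins the actin cytoskeleton to the surrounding basement membrane. Inside the fibre, dystrophin (Dmd) binds actin and holds syntrophins and dystrobrevins; in the membrane, dystroglycan (Dag1) stands beside the sarcoglycans; outside, dystroglycan binds laminin. Loss of dystrophin causes Duchenne muscular dystrophy, loss of a sarcoglycan causes limb-girdle muscular dystrophy and loss of the laminin alpha 2 chain (Lama2) causes a congenital muscular dystrophy. Lama2 is the extracellular ligand of the complex and not a membrane component. Utrophin (Utrn) is the close relative of dystrophin that in adult fibres is gathered at the neuromuscular junction.

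None of the 12 probe sets passed the test for a difference between genotypes. Signals are linear intensities in arbitrary units. Differences are log2 fold changes, KO minus WT, of log2(intensity + 14), given with the standard error of a limma fit on all 12422 probe sets and with p adjusted by the Benjamini-Hochberg method over all of them. Of the 12, 0 passed at 0.05 after adjustment (the lowest limma adjusted p = 0.908), and 0 had an unadjusted p under 0.05. Among all probe sets tested, 0% passed the adjusted threshold and 5.43% the unadjusted one. The lowest limma adjusted p over all of them was 0.803, so failing the test does not show that a probe set was unchanged. In every sentence below, an adjusted p is that of limma.

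The arrays were comparable as a whole. Array medians ran from 67.6 to 71.1 and the correlation of log2 signals from 0.960 to 0.966 over all pairs of arrays, across probe sets. The brighter Crhr2 probe set read 154 and 192 in the WT pools and 100.4 and 75.1 in the KO pools. The signal of the targeted gene was thus lower in KO, though still above the median probe set at 68.7. This difference did not pass the adjusted threshold either, as none on the array did. Whether the rest of the signal is transcript or background was not tested. Whether that probe set lies in the deleted stretch is unknown here, which limits it as a check of the labels. The muscle label was borne out by the markers of mature fibres, such as Acta1, Ckm and the myosins: 16 of 18 were measured, 15 of these lay above the median probe set, and their summed signal was 135134 and 136813 in the WT pools and 132626 and 145237 in the KO pools. RNA integrity, read as the actin control's 3' signal over its 5' signal, was 0.624 and 0.686 in the WT pools and 0.729 and 0.866 in the KO pools. Its part in the results below was not tested. Fewer cells of a type and less RNA per cell cannot be told apart in such samples.

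**Figure D1:**
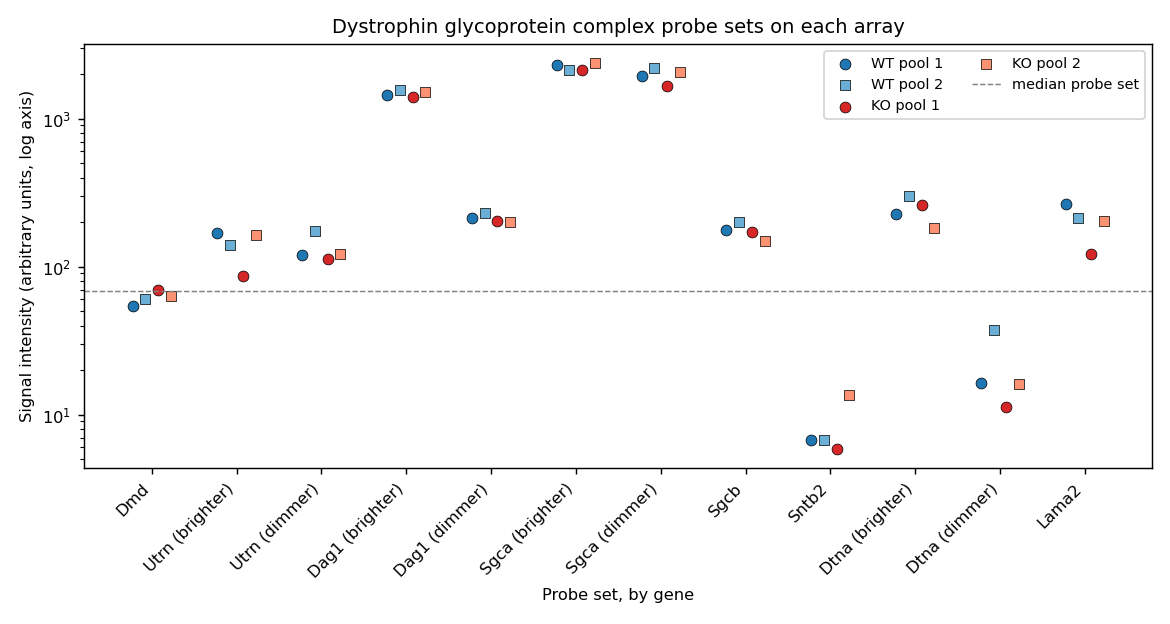
Signal intensity (arbitrary units, log axis) of the 12 probe sets on each of the 4 arrays, with WT pools in blue and KO pools in red, circles for pool 1 and squares for pool 2. The dashed line is the median probe set at 68.7; Dmd, Sntb2 and the dimmer Dtna probe set have means below it, and the red and blue points of most genes lie among each other.

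Dystrophin is the long rod-shaped protein that gives the complex its name. Its probe set 93623_at read 54.4 and 60.9 in WT pools 1 and 2 and 69.4 and 63.6 in KO pools 1 and 2. Both KO pools read above both WT pools, yet the signal was dim, with a mean below that of the median probe set. The mean was 57.7 ± 4.55 (SD, n = 2) in WT and 66.5 ± 4.06 (SD, n = 2) in KO, a log2 fold change of 0.17 ± 0.31 (adjusted p = 0.953). The 95% interval of the difference ran from -0.58 to 0.91, or from 0.671 to 1.88 times WT. Dmd was the only 1 of the 12 probe sets in which both KO pools stood above both WT pools, and 17% of all probe sets did so. Which of the several Dmd transcripts it reads is unknown here.

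Utrophin was read by a pair of probe sets that disagreed on which pool was high. Probe set 92508_s_at read 169 and 139 in the WT pools and 86.8 and 165 in the KO pools, so KO pool 1 stood low by itself and KO pool 2 read close to WT pool 1. Probe set 92507_at read 120.1 and 175 in the WT pools and 112 and 122 in the KO pools, so WT pool 2 stood high by itself. The groups overlapped on both. The log2 fold changes were -0.32 ± 0.32 (adjusted p = 0.913) and -0.28 ± 0.25 (adjusted p = 0.908), alike in size while resting on different arrays. Without KO pool 1 the first became 0.09 ± 0.25, and without WT pool 2 the second became -0.04 ± 0.30. The KO mean stood at 81.6% of WT on the first and at 79.2% on the second. Dystrophin and utrophin bind many of the same partners, and their differences had opposite signs here, none of which passed the test.

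Dystroglycan, whose single precursor is cut into the laminin-binding alpha part and the membrane-spanning beta part, was among the most even members. Its brighter probe set 101109_at read 1454 and 1562 in the WT pools and 1397 and 1511 in the KO pools. The 4 values interleaved, and pool 2 read above pool 1 in both genotypes. The means were 1508 ± 76.0 (SD, n = 2) in WT and 1454 ± 80.2 (SD, n = 2) in KO, a log2 fold change of -0.05 ± 0.10 (adjusted p = 0.960). The 95% interval ran from -0.30 to 0.20, or from 0.811 to 1.15 times WT. The dimmer probe set 161183_at read 213 and 231 in the WT pools and 205 and 200.3 in the KO pools. Here both KO pools lay below both WT pools by a small margin, with a log2 fold change of -0.12 ± 0.16 (adjusted p = 0.931) and an interval from -0.51 to 0.26.

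Laminin alpha 2, the chain of the muscle basement membrane that dystroglycan binds, had the largest log2 fold change of the 12 with 14 added to the signal; in plain signals, and with 1 added, the dim Dtna probe set described further on differed more. Its probe set 92366_at read 266 and 214 in the WT pools and 122 and 204 in the KO pools. Both KO pools lay below both WT pools, but KO pool 2 missed WT pool 2 by little and KO pool 1 stood apart. The mean was 240.2 ± 36.7 (SD, n = 2) in WT and 163 ± 57.6 (SD, n = 2) in KO, so the KO mean was 67.8% of WT. The log2 fold change of -0.55 ± 0.27 did not pass (adjusted p = 0.908), with a 95% interval from -1.20 to 0.09. It was -0.22 ± 0.22 without KO pool 1, -0.89 ± 0.23 without KO pool 2, -0.41 ± 0.35 without WT pool 1 and -0.70 ± 0.34 without WT pool 2. Fibroblasts and tendon cells also make matrix proteins. Of 12 of their markers 10 were measured, all above the median probe set, with a summed signal of 11366 and 10035 in the WT pools and 11021 and 10095 in the KO pools. Decorin (Dcn) made up much of that sum, at 4782 and 4800.3 in the WT pools and 4945 and 4413 in the KO pools. Of the 10 genes 5 were lower and 5 higher in KO, with a median log2 fold change of -0.01. Mfap5 at -0.40 and Pdgfra at -0.39 were among the lower on their brightest probe sets, though the Pdgfra groups overlapped. The dimmer Mfap5 probe set gave -0.18 ± 0.52, and the dimmer ones of Pdgfra gave 0.08 ± 0.37 and 0.07 ± 0.37. The part of these cells in the Lama2 difference was not tested.

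Sgca encodes alpha-sarcoglycan, which is made almost only in striated muscle. Probe set 160631_s_at read 2295 and 2116 in the WT pools and 2120 and 2367 in the KO pools, and the genotypes overlapped. Its log2 fold change of 0.02 ± 0.11 (adjusted p = 0.988) had a 95% interval from -0.24 to 0.29, or 0.846 to 1.22 times WT. Probe set 103395_at read 1936 and 2210 in the WT pools and 1674 and 2078 in the KO pools. KO pool 1 was lowest there, but KO pool 2 read above WT pool 1. The log2 fold change was -0.15 ± 0.14 (adjusted p = 0.908), with an interval from -0.49 to 0.19, so the sign of the Sgca difference was not the same on both probe sets.

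Beta-sarcoglycan, which forms the core of the sarcoglycan group with delta-sarcoglycan, differed a little more than Sgca. The Sgcb probe set 93898_at read 177 and 201 in the WT pools and 172 and 149 in the KO pools. Both KO pools lay below both WT pools, KO pool 1 only just below WT pool 1. The mean was 189 ± 17.2 (SD, n = 2) in WT and 161 ± 16.8 (SD, n = 2) in KO, a log2 fold change of -0.22 ± 0.19 (adjusted p = 0.908). The 95% interval ran from -0.68 to 0.24.

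Alpha-dystrobrevin (Dtna) is a cytoplasmic relative of dystrophin that binds syntrophins. Its brighter probe set 92183_at read 225 and 298 in the WT pools and 262 and 182 in the KO pools, so KO pool 1 lay between the WT pools and KO pool 2 below both. The log2 fold change was -0.23 ± 0.23 (adjusted p = 0.913) and became 0.02 ± 0.23 without KO pool 2. The dimmer probe set 92184_at read 16.3 and 37.1 in the WT pools and 11.3 and 16.1 in the KO pools, far below the median probe set. WT pool 2 stood high by itself, and the other 3 arrays were close. The KO mean was 51.3% of WT. Its log2 fold change of -0.51 ± 0.37 (adjusted p = 0.908) was -0.82 with 1 added in place of 14, and became -0.13 ± 0.36 without WT pool 2 and -0.89 ± 0.40 without WT pool 1.

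Beta-2-syntrophin (Sntb2), an adaptor that ties signalling proteins to dystrophin and utrophin, was the dimmest member. Probe set 104489_at read 6.77 and 6.76 in the WT pools and 5.85 and 13.5 in the KO pools. The WT pools were nearly equal, while the KO pools were the lowest and the highest of the 4. The log2 fold change of 0.17 ± 0.25 (adjusted p = 0.941) became -0.06 ± 0.22 without KO pool 2. At this signal the array gives a weak account of Sntb2 in either genotype.

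**Figure D2:**
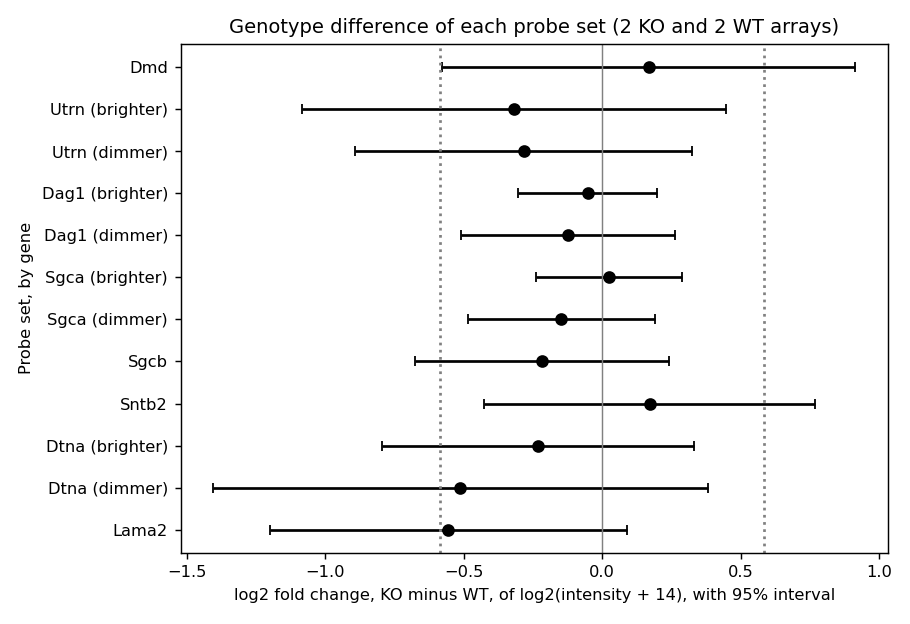
Log2 fold change of each probe set, KO minus WT, on the log2(intensity + 14) scale, with points for the limma estimate and bars for its 95% interval (2 KO and 2 WT arrays). Dotted lines mark a 1.5-fold difference in either direction; the intervals of both Dag1 and both Sgca probe sets lie inside them, and all 12 intervals include 0.

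Seen together, 9 of the 12 probe sets had a lower mean in KO and 3 a higher one, with a median log2 fold change of -0.18. Over all probe sets the median was 0.00013 and 50.0% were lower. The size of the differences was ordinary for this table: the median absolute log2 fold change was 0.19 for the 12 and 0.19 for all probe sets. Taking only the brightest probe set of each gene, 5 of the 8 genes were lower and 3 higher, and the median was -0.14. The negative median rested in part on single arrays, as it was -0.05 without WT pool 2 and -0.07 without KO pool 1.

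Members did not overlap between genotypes about as often as probe sets in general. Groups did not overlap in 5 of the 12 probe sets, 4 lower in KO (Lama2, Sgcb, the dimmer Dag1 and the dimmer Dtna probe set) and 1 higher (Dmd). Of all probe sets tested, 34.6% did not overlap; as shares of all probe sets, 17.6% did not overlap and were lower in KO, and 17% did not overlap and were higher. For each of these 5 the exact permutation test, two-sided, gave p = 0.333, the lowest that 2 arrays against 2 can reach. With a 1.5-fold difference required as well, 0 of the 12 remained, against 8.77% of all probe sets. The intervals of 4 of the 12, both of Dag1 and both of Sgca, excluded a 1.5-fold difference in either direction on this scale.

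As in the table at large, pools of the same genotype often differed more than the genotypes did. For 9 of the 12 probe sets the larger difference between same-genotype pools exceeded the difference between genotype means, against 78.0% of all probe sets. KO pool 1 was the lowest of the 4 arrays for 7 of the 12 (Lama2, both Utrn, the brighter Dag1, the dimmer Sgca, the dimmer Dtna and Sntb2), where 26.7% of all probe sets were lowest there. WT pool 2 was the highest for 7 of the 12 (both Dag1, both Dtna, the dimmer Utrn, the dimmer Sgca and Sgcb), against 25.5% of all probe sets. The median deviation of the 12 from their 4-array mean was -0.12 in KO pool 1 and 0.12 in WT pool 2, and -0.02 and 0.03 in WT pool 1 and KO pool 2. Exocrine pancreas markers set KO pool 1 apart as well: 14 of 20 were measured, and their summed signal was 2062 and 1972 in WT, 14333 in KO pool 1 and 4392 in KO pool 2. They also differed between genotypes, with all 14 higher in KO. In 12 of them both KO pools lay above both WT pools, as in 17% of all probe sets. Liver markers, 14 of 16 measured, were highest in WT pool 2, at 2246 and 2527 in the WT pools and 1370 and 1578 in the KO pools. Of these, 12 were lower in KO, and 10 did not lie above the median probe set. Cyp2e1 held much of the sum, at 1484 and 563 in the WT pools and 1008 and 1095 in the KO pools. The list's median deviation was 0.02 and 0.74 in the WT pools and -0.46 and -0.15 in the KO pools. The part of pancreas or liver transcripts in the members' order was not tested.

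**Figure D3:**
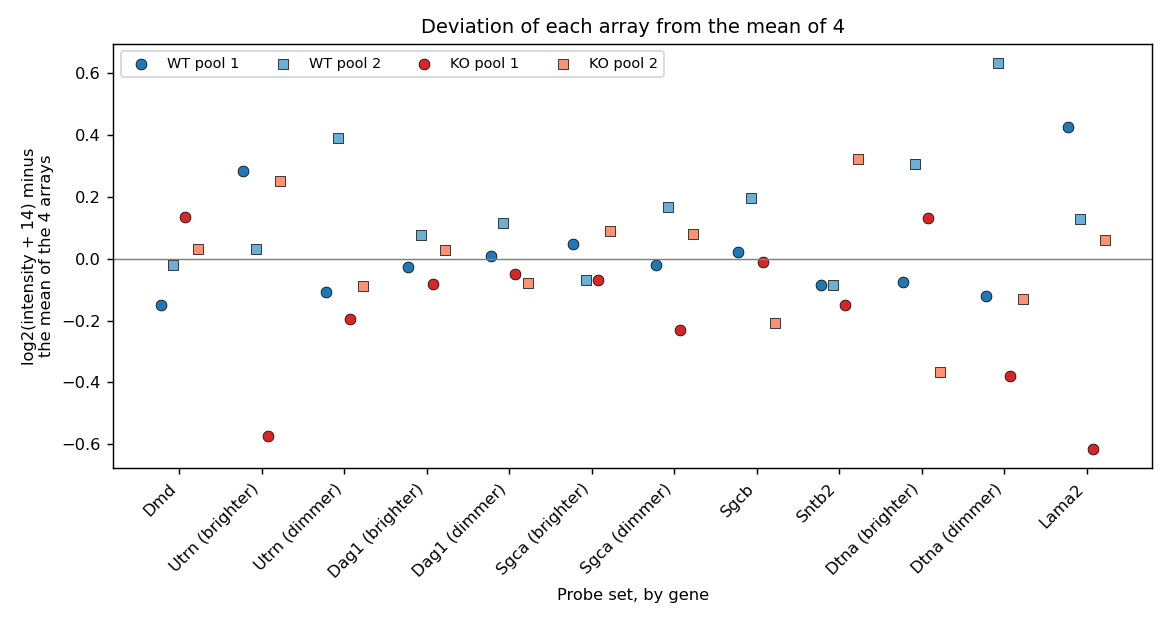
Deviation of each array's log2(intensity + 14) from the mean of the 4 arrays, for each probe set, coloured as WT (blue) and KO (red) with circles for pool 1 and squares for pool 2. Lama2 and the brighter Utrn probe set are lowest in KO pool 1 (-0.62 and -0.57), and both Dtna probe sets are highest in WT pool 2 (0.31 and 0.63).

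The pattern of Lama2 over the 4 arrays, the widest among members brighter than the median probe set at 1.04 on the log2 scale, was set against 5615 other named probe sets of that brightness. The nearest, by the root mean square difference of their deviations, were Leng8 (0.059), Mfn1 (0.079) and Tmem129 (0.082). Leng8 read 172 and 141 in the WT pools and 72.7 and 119 in the KO pools. All of them shared the low KO pool 1 with Lama2, which follows from picking them for nearness to it. With only 4 arrays, many genes have a like order.

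Promoter sequence is shown for 3 members. These are Dmd, which names the complex, and Sgca, whose brighter probe set varied little. The last is Lama2, which had the widest range among the members brighter than the median probe set. Each is the 250 bases before a RefSeq gene start in GRCm38.p6, on the gene's strand, 5′ to 3′, with E-boxes (CANNTG, the sites of myogenic factors such as MyoD) in capitals. The windows are chrX:82948620-82948869 (plus strand) for Dmd, chr11:94976328-94976577 (minus strand) for Sgca and chr10:27616943-27617192 (minus strand) for Lama2.
Dmd: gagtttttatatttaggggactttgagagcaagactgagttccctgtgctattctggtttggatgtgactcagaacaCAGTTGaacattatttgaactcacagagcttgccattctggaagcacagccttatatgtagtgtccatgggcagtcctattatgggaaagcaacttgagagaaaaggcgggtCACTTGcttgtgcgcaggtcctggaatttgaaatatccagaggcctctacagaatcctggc
Sgca: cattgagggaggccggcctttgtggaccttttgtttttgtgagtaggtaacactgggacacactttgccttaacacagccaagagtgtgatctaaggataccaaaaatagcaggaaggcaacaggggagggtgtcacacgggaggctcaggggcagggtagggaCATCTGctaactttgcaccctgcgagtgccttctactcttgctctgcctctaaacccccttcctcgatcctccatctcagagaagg
Lama2: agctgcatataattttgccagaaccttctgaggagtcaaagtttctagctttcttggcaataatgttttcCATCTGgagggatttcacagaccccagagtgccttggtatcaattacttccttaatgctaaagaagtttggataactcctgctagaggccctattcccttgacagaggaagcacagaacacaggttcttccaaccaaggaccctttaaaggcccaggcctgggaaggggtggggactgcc
The Dmd window shown held 2 such matches, and those of Sgca and Lama2 1 each. A second Dmd window in the table, at chrX:85048045-85048294 (plus strand), held 0 E-boxes and 3 GC boxes. The counts cover 8 windows for 6 of the members. Members' windows on 2 chromosomes were left out by choice, and Dtna and Sntb2 are therefore not counted. The windows of all genes kept every chromosome, so members and background were not chosen alike. Of the 8, 6 had an E-box, against 66.2% of all 32851 windows of that length. The GC box (GGGCGG, on either strand) was in 4 of the 8 windows and in 32.7% of all, and in none of the 3 shown. The TATA box (TATAAA, either strand) was in 2 of the 8 and 12.4% of all, and the N-box (CCGGAA, either strand), known from genes of the neuromuscular junction, in 0 of the 8 and 12.0% of all. No matches overlapped in the windows shown, and the Dag1 pair of windows among the 8 overlap each other. These matches describe the letters only, and the arrays did not measure these promoters.

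Other genes of the complex were taken from a list of 13, of which 7 were measured. Of the 7, 5 were lower and 2 higher in KO, with a median log2 fold change of -0.16 that was 0.05 without KO pool 2. By limma 0 passed the adjusted threshold, and 1 had an unadjusted p under 0.05. That gene was caveolin 3 (Cav3), the caveola protein of muscle that binds beta-dystroglycan. Its brighter probe set 99050_at read 778 and 789 in the WT pools and 629 and 593 in the KO pools. Both KO pools lay well below both WT pools, whose values were close, and the difference of -0.35 ± 0.11 did not pass adjustment (adjusted p = 0.813). Its dimmer probe set 162297_s_at read 561 and 553 in the WT pools and 482 and 442 in the KO pools, which again did not overlap, with a log2 fold change of -0.26 ± 0.12 (adjusted p = 0.908). Over the alternatives tried, the first ran from -0.39 to -0.31 and the second from -0.33 to -0.20, so no single array set their sign.

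The other 6 genes of that list had an unadjusted p of 0.355 or above. Sarcospan (Sspn), the small membrane protein beside the sarcoglycans, read 721 and 1030 in the WT pools and 992 and 925 in the KO pools, with KO inside the WT range. Epsilon-sarcoglycan (Sgce), a relative of Sgca, read 367 and 350.1 in the WT pools and 370.4 and 318 in the KO pools. Delta-sarcoglycan (Sgcd), the partner of Sgcb, was dim at 46.9 and 54.9 in the WT pools and 48.2 and 25.6 in the KO pools, a log2 fold change of -0.38 ± 0.38 that was -0.06 without KO pool 2 and -0.71 without KO pool 1. Beta-dystrobrevin (Dtnb) read 71.0 and 68.1 in the WT pools and 55.8 and 66.2 in the KO pools, which did not overlap, and had a log2 fold change of -0.16 ± 0.30. Beta-1-syntrophin (Sntb1) and the neuronal nitric oxide synthase Nos1, which syntrophin holds at the membrane, were both dim, with log2 fold changes of -0.21 ± 0.53 and 0.09 ± 0.33.

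Enzymes that build the sugar chain by which dystroglycan binds laminin were mixed. Of 17 listed, 7 were measured, 4 lower and 3 higher in KO, with a median log2 fold change of -0.08 that was 0.03 without WT pool 1 and 0.0098 without KO pool 2. Those with the smallest p were Rxylt1, a xylosyltransferase, at -0.72 ± 0.46, and B3galnt2, at 0.17 ± 0.21. In both the genotypes overlapped: Rxylt1 read 87.0 and 49.0 in the WT pools and 21.4 and 52.5 in the KO pools, lowest in KO pool 1. Leaving out 1 array moved Rxylt1 between -1.17 (without KO pool 2) and -0.26 (without KO pool 1), and B3galnt2 between 0.0098 (without KO pool 2) and 0.32 (without KO pool 1).

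Basement membrane and integrin genes, the laminin-binding route beside dystroglycan, were all measured. Of 21, 9 were lower and 12 higher in KO, with a median of 0.01 that was -0.14 without WT pool 2. The other laminin alpha chains Lama1 (dim), Lama4 and Lama5 differed by 0.17 ± 0.31, 0.06 ± 0.15 and 0.07 ± 0.15, and whether they differed from Lama2 in this was not tested. The beta chain Lamb1 and Lamc1, the gamma chain of most laminins, differed by 0.23 ± 0.25 and 0.17 ± 0.26. Lamb2, a beta chain found at the junction, read 468 and 405 in the WT pools and 349 and 391 in the KO pools, a log2 fold change of -0.23 ± 0.14. Itgb1, the beta chain of the muscle laminin receptor, read 2828 and 2495 in the WT pools and 2350.1 and 2337 in the KO pools (-0.18 ± 0.11), and both KO pools lay below both WT pools. Itga7, its alpha partner in muscle, differed by 0.01 ± 0.18.

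Genes of the costamere, where the complex is anchored, and of membrane repair were 12 lower and 6 higher in KO of 18 measured from 24 listed. Their median of -0.10 was 0.01 without WT pool 1 and 0.02 without KO pool 1. Grb2, an adaptor that binds dystroglycan, read 528 and 531 in the WT pools and 428 and 456 in the KO pools, a log2 fold change of -0.26 ± 0.12. The keratin Krt19, which links dystrophin to the contractile apparatus, was dim at 54.1 and 59.5 in the WT pools and 4.40 and 43.8 in the KO pools. Its log2 fold change of -1.12 ± 0.58 was largely set by KO pool 1 (-0.29 without it). The dimmer Krt19 probe set, with a mean signal of 6.67, did not repeat this (-0.09 ± 0.21). Genes of the neuromuscular junction, where utrophin gathers, were 7 lower and 2 higher of 9 measured from 11 listed (median -0.20). Chrng, the fetal gamma subunit of the acetylcholine receptor, read 44.9 and 64.1 in the WT pools and 15.4 and 27.0 in the KO pools (-0.97 ± 0.38), and the beta subunit Chrnb1 differed by -0.25 ± 0.17, which was -0.08 without WT pool 2 and -0.43 without WT pool 1. In these 4 lists 0 genes passed the adjusted threshold by limma, and 1 gene, Chrng, had an unadjusted p under 0.05.

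**Figure D4:**
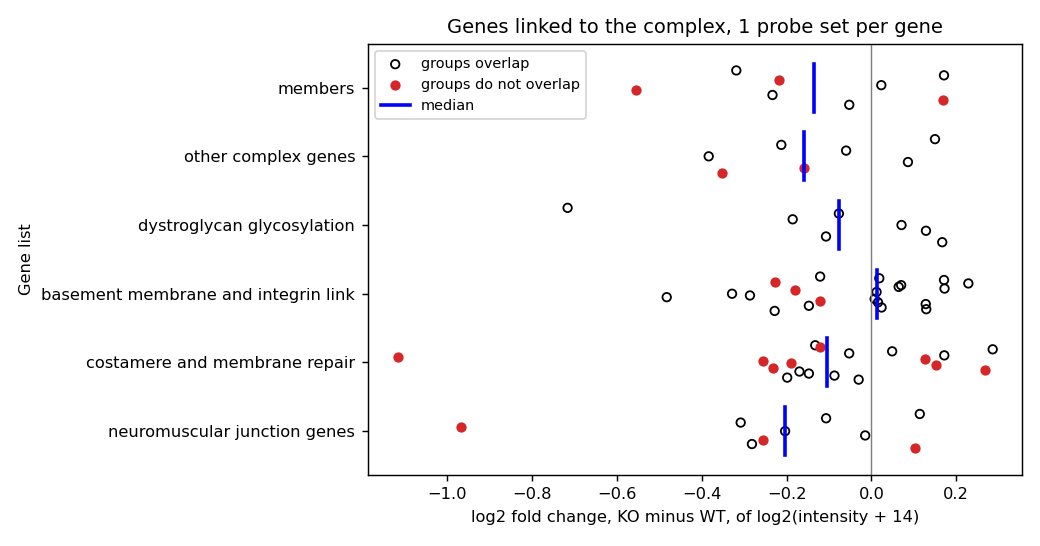
Log2 fold change of each gene, KO minus WT, on the log2(intensity + 14) scale, by list, with 1 probe set per gene. Filled red points are genes whose KO and WT arrays do not overlap, open points those that do, and blue bars the list medians, which run from -0.20 (neuromuscular junction) to 0.01 (basement membrane and integrin).

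Cells other than fibres also make some of these proteins, utrophin and laminin alpha 2 among them. Schwann cell and nerve markers were measured for 10 of 13, with 6 of the 10 not above the median probe set. They summed to 883 and 1128 in the WT pools and 1058 and 1029 in the KO pools, with 4 genes lower and 6 higher (median 0.06). Endothelial markers (12 of 13) summed to 2662 and 2614 in the WT pools and 2675 and 2746 in the KO pools, with 7 genes lower and 5 higher (median -0.07). Endomucin (Emcn) differed most by p among them, at 103 and 124 in the WT pools and 181 and 205 in the KO pools (0.70 ± 0.21). Its other probe sets did not repeat this: 94997_at gave 0.18 ± 0.25 with overlapping groups, and the dim 93884_at gave -0.66 ± 0.53. Smooth muscle and pericyte markers (9 of 10) summed to 2590 and 2436 in the WT pools and 2245 and 2339 in the KO pools. Both KO sums lay below both WT sums, but not without desmin (Des), the largest term and also a listed costamere gene. Des read 593 and 622 in the WT pools and 574 and 490 in the KO pools. Gene by gene, KO was below WT in 7 of the 9 and above it in 2. The genotypes did not overlap in 5 of those 7 and in 1 of those 2. The list's median of -0.19 stayed between -0.22 and -0.16 when 1 array was left out. Pdgfrb had the smallest p in this list, at 141 and 165 in the WT pools and 95.8 and 91.2 in the KO pools (-0.63 ± 0.22). The part of these cells in the Lama2 difference was not tested. Markers of regenerating fibres and satellite cells (10 of 12) summed to 2507 and 2539 in the WT pools and 2698 and 2485 in the KO pools. The muscle regulator Myf6 held much of that sum, at 966 and 937 in the WT pools and 1190 and 1093 in the KO pools, while 7 of the 10 genes were lower in KO and the list's median was -0.16. Macrophage markers (10 of 11) summed to 1694 and 1499 in the WT pools and 1544 and 1699 in the KO pools, with 5 genes lower and 5 higher (median 0.05). Adipocyte markers (7 of 9) summed to 4332 and 2900 in the WT pools and 3495 and 3072 in the KO pools, with 5 genes lower and 2 higher (median -0.21). Of these lists 0 genes passed the adjusted threshold by limma. No value in the table was 0, the lowest being 0.0567.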

How the data were processed

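RNA of 2 WT and 2 KO pools was measured on 4 arrays. The values deposited by the authors are signal intensities on a linear scale; how probes were summarised, and on which genome build, is not stated in the labels. They came already scaled between arrays (mean without the lowest and highest 2% of 197.8 to 198.0), so no scaling was added. Of 12488 probe sets, 66 controls were left out. Genes came from the platform annotation (1 symbol for 10833 probe sets), updated through gene identifiers of GRCm38.p6 for 10817. Values were taken as log2(intensity + 14) and fitted by genotype with limma 3.58.1 in R 4.3.3 (eBayes with trend), which understates differences of dim probe sets. Tests were two-sided. The fit was tested on simulated data. The members and lists were chosen with earlier results of these data known. Genes named outside the members were the 2 of smallest p in each list linked to the complex; all of the other complex genes, the laminin chains and Itga7 were named besides, for their roles, after their values were seen. Marker lists are given by sums, and some of them also by counts of lower and higher genes and by medians. From them Dcn, Mfap5, Pdgfra, Cyp2e1, Emcn, Des, Pdgfrb and Myf6 were named after their values were seen. Alternatives were the pseudocount, a filter on dim probe sets, the scaling, the trend, a replicate block and leaving out each array.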

Additional observations from a re-analysis of the deposited data

How the results depend on the processing

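The count of 0 probe sets with an adjusted p under 0.05 held in limma under every alternative tried, for the 12 members, the linked lists and all probe sets; the members' adjusted p stayed at 0.771 or above. Members meeting the rule of 1.5-fold without overlap, 0 as reported, numbered 2 with a pseudocount of 1 (Lama2 and the dimmer Dtna probe set, where 14.7% of all probe sets met it) and 0 to 3 with 1 array left out, the lone array of a genotype being taken to vary like the other genotype's: 0 without KO replicate 1, 3 without KO replicate 2 and 1 without either WT replicate. Fewer arrays make overlap less likely by construction, and 14.6% to 17.3% of all probe sets then met it. The median member log2 fold change of -0.18 ran from -0.22 to -0.048 with 1 array left out. Among the members, the named genes and the lists linked to the complex, signs turned only when an array was left out, and the cause was not tested. The list medians then ran from -0.17 to 0.046 for other complex genes, -0.13 to 0.026 for glycosylation, -0.14 to 0.027 for basement membrane and integrin genes and -0.11 to 0.016 for the costamere. The ranges then were -0.11 to 0.0036 for Dag1 101109_at, -0.30 to 0.0065 for Sgca 103395_at, -0.056 to 0.10 for Sgca 160631_s_at, -0.73 to 0.094 for Utrn 92508_s_at, -0.48 to 0.016 for Dtna 92183_at, -0.065 to 0.41 for Sntb2, -0.17 to 0.046 for Sgce, -0.10 to 0.40 for Sspn, -0.95 to 0.53 for Sntb1, -0.046 to 0.22 for Nos1, -0.013 to 0.36 for Lama1, -0.023 to 0.15 for Lama4, -0.053 to 0.19 for Lama5, -0.017 to 0.47 for Lamb1, -0.14 to 0.49 for Lamc1 and -0.071 to 0.095 for Itga7. With the sign kept, Dtnb ran from -0.26 to -0.059, Lamb2 from -0.33 to -0.13 and Itgb1 from -0.27 to -0.090. Pools with the same number did not deviate together (r = 0.0034 across probe sets), so the numbers pair nothing. With the replicate block the 12 members still had 0 calls, and Lama2 stayed at -0.55 (limma adjusted p = 0.827). The number of arrays limits the precision, most for the dim Dmd, Sntb2 and Dtna 92184_at.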
